A study of Mus musculus with 4 samples.

Results

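The 10 genes described here encode enzymes that degrade cyclic AMP: Pde3a, Pde3b, Pde4a, Pde4b, Pde4c, Pde4d, Pde7a, Pde7b, Pde8a and Pde10a. They were chosen by name, with earlier results of these data known, and were matched by symbol. All 10 were found among the 45777 genes of the deposited expression table. The data are RNA sequencing of C2C12 myotubes, the fused muscle cells that the mouse C2C12 myoblast line forms in low serum, under 2 treatments used as models of exercise in culture. There were 4 libraries, 1 per group, in the order clenbuterol, clenbuterol control, titled EPS and titled EPS control wherever 4 values follow each other.

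Clenbuterol is a sympathomimetic drug that raises cyclic AMP in its target cells. The labels leave EPS unexplained, and it is taken as electrical pulse stimulation, the usual meaning for cultured muscle. The groups share the cell line, a DMEM medium with 2% horse serum and antibiotics, and a treatment entry of 30 ng/ml clenbuterol, which stands on the control records and both EPS records as well. Groups were therefore taken from the sample titles. The sources used here do not say how long either treatment lasted, which pulses were used, or whether a library came from 1 culture or a pool. The EPS pair has a conflict between titles and data names: the record titled EPS holds data named for the control, and the record titled EPS control holds data named for EPS. The libraries are called by their titles, and if the data names are the correct ones, each EPS direction is the opposite of that given.

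With 1 library per group no spread between cultures could be measured, so no test was run and no p-value is given. Levels are TPM, a transcript abundance scaled for length and library size that can be compared between genes. A gene was called higher or lower when TPM plus 1 differed at least 2-fold, among genes with at least 1 TPM in a library of the pair. Ratios of CPM, counts relative to TMM-scaled library totals, are given with exact Clopper-Pearson 95% intervals, which cover counting error only. Library totals were 33148483, 33408083, 35597074 and 32640884 estimated counts. All 11 myotube markers reached 1 TPM, with summed levels of 31260, 31081, 21019 and 25228 TPM, so the EPS pair was lower than the clenbuterol pair. The 6 markers of undifferentiated myoblasts also each reached 1 TPM in a library, with summed levels of 275, 200, 217 and 184 TPM. Of 4 immune markers Ptprc and Adgre1 were listed at 0 in all 4 libraries and 1 other reached 1 TPM, with summed levels of 2.97, 5.11, 4.85 and 3.29 TPM. Of 4 adipocyte markers Adipoq, Plin1 and Cidec were listed at 0 throughout, and the list summed to at most 0.427 TPM. Of 4 neural markers Rbfox3 and Snap25 were listed at 0 throughout, and the list summed to at most 0.271 TPM. The 4 endothelial markers summed to between 0.166 and 0.556 TPM.

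Cyclic AMP is made by adenylyl cyclases after hormone receptors activate the G protein Gs, and it acts mainly through protein kinase A, the exchange factors EPAC and cyclic nucleotide-gated channels. Phosphodiesterases end the signal by hydrolysing the nucleotide, and anchored enzymes keep it local within the cell. The PDE4, PDE7 and PDE8 families act on cyclic AMP alone, whereas PDE3 and PDE10 enzymes also hydrolyse cyclic GMP. PDE4 enzymes are the targets of rolipram, and their long forms are activated by protein kinase A. In several cell types cyclic AMP raises the transcription of PDE4 genes, a textbook negative feedback loop.

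All members share a catalytic domain whose metal-binding motif holds a histidine, an aspartate and a second histidine. The 30 bases that start at this motif are shown for 5 members to set 3 PDE4 genes beside the most expressed member, Pde7a, and the member least like Pde4b here, Pde10a, with the codons of these 3 residues in capitals (GENCODE M21 transcripts, GRCm38, 5′ to 3′ on the coding strand).
Pde4b: CATGATgtcgatCATcctggagtctccaat
Pde4d: CATGATgtggacCATcctggggtgtcaaat
Pde4a: CATGACgtggacCACcctggcgtctccaac
Pde7a: CACGATctggatCACccaggtgttaatcag
Pde10a: CATGACctggacCACaggggcttcagtaac

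The Pde4b bases lie at chr4:102599694-102599723 on the plus strand, within 1 coding exon. Pde4d matched Pde4b at 25 of the 30 bases, Pde4a at 24 and Pde4c at 22, whereas Pde7a matched at 18 and Pde10a at 16. Pde8a matched at 21, Pde3b and Pde7b at 20 and Pde3a at 19. Among the more highly expressed members, Pde4d lies at chr13:108654177-109955969 and Pde7a, on the minus strand, at chr3:19223108-19311322 (mm10). Across whole annotated transcripts, 0 of the 45 pairs of members shared an identical stretch of 50 bases.

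Pde7a had the highest level of the 10 genes in all 4 libraries, and the position of Pde4b below it moved most between libraries. In the clenbuterol library Pde4b stood in place 2 with 23.6 TPM (22.3 to 24.8), an interval that overlapped that of Pde7a at 24.5 TPM (23.5 to 25.6). In the clenbuterol control the order was Pde7a (22.2 TPM), Pde4d (6.40), Pde8a (5.87), Pde10a (4.40), Pde3b (4.26), Pde4b (3.19) and Pde4a (2.16). Pde4d and Pde8a overlapped in their counting intervals, 5.97 to 6.85 against 5.27 to 6.51 TPM, and so did Pde10a and Pde3b. Pde4b stood in place 5 in the titled EPS library and in place 3 in the titled EPS control, against place 6 in the clenbuterol control. Pde4c, Pde3a and Pde7b stayed below 0.2 TPM in all 4 libraries and did not reach the 1 TPM minimum in either comparison, so 7 of the 10 members could be called.

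**Figure D1:**
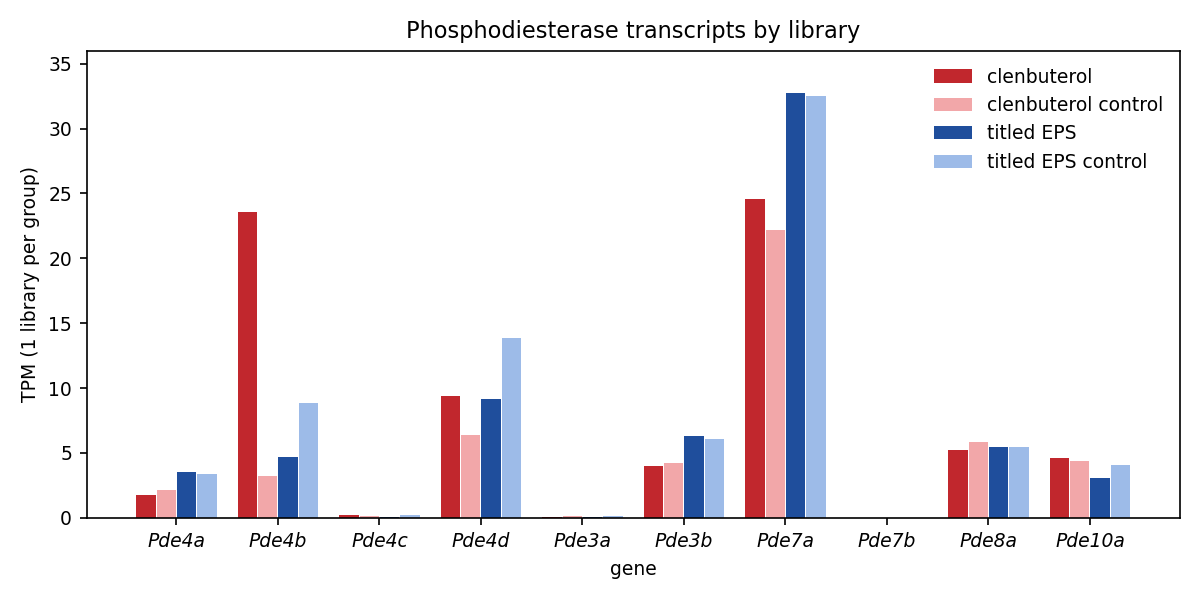
Level of each phosphodiesterase gene in TPM (vertical axis), with 1 bar per library and no error bar because each group has 1 library. Pde4b stands at 23.6 TPM in the clenbuterol library and between 3.19 and 8.85 TPM in the other 3, whereas Pde7a is above 22 TPM in all 4.

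Pde4b, a rolipram-sensitive enzyme studied for its part in inflammatory signalling and in cyclic AMP feedback, was the 1 member called in the clenbuterol comparison. It had 1412 counts in the clenbuterol library and 195 in its control, and the titled EPS library had 299 counts, the titled EPS control 512. The clenbuterol library held the highest level and its control the lowest, and the library titled EPS control was nearest to the clenbuterol library. The CPM ratio to the control was 7.45 (6.41 to 8.70), and TPM plus 1 differed by 2.55 on the log2 scale, above 99.9% of the genes tested. Of the 7 callable members 1 was called higher and 0 lower, beside 1.00% called higher and 0.515% lower of all 13788 genes tested. The members were chosen with earlier results of these data known, so this describes them and is not a test. In TPM plus 1 the clenbuterol library was 2.49-fold above the next library. In all, 63 of 14213 genes, or 0.443%, were at least 2-fold above each of the other 3 libraries there.

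The clenbuterol ratio of Pde4b depends on the library it is set against. Against the library titled EPS the CPM ratio was 5.24 (4.63 to 5.96), and against the library titled EPS control it was 2.76 (2.50 to 3.06). The control of the clenbuterol pair was the lowest of the 4, with a CPM that the library titled EPS control exceeded 2.70-fold (2.28 to 3.20). These ratios cross culture pairs, and where a treated library is included, the pair cannot be told apart from the treatment. Under either naming the EPS pair holds a control. Its Pde4b CPM was 2.70 times that of the clenbuterol control if the titles are right. If the data names are right, it was 1.42 times (1.18 to 1.71). The cause was not tested.

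GENCODE M21 annotates 9 protein-coding Pde4b transcripts with 9 start sites, coding for 161 to 736 codons and spread over chr4:102087332-102607262 on the plus strand (mm10). The deposited values are per gene, so long and short forms could not be separated. Promoter windows from RefSeq (GRCm38.p6, from 250 bases before to 50 after a start site) were at hand for 7 members, in 13 windows. The window of Pde4b at chr4:102421305-102421604 is shown because it holds the core of the cyclic AMP response element, TGACG on either strand, in capitals in its reverse form.
Pde4b: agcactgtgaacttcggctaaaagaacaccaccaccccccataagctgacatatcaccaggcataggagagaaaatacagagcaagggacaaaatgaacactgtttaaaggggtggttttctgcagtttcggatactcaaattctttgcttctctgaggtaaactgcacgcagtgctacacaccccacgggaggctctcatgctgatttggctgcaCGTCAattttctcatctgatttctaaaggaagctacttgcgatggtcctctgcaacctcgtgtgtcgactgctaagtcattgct

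Its first base lies 34 bases before the RefSeq start site at chr4:102421555, and the other 3 Pde4b windows hold no such core. In GENCODE M21 the transcript Pde4b-205 starts at chr4:102421518, so there the core lies just inside the transcript. The RefSeq windows do not cover all 9 GENCODE start sites of the gene. Of all 32851 mouse windows, 20.8% hold TGACG on either strand, against 3 of the 13 windows of the members. The other 2 belong to Pde4a and Pde8a, shown with 20 bases on each side and the core in capitals, at chr9:21184031-21184075 and chr7:81213161-81213205 on the plus strand. Neither gene was called with clenbuterol.
Pde4a: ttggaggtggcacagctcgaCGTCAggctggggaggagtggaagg
Pde8a: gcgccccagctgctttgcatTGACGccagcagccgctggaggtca

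The full palindrome TGACGTCA, which contains the core, occurred in 0 of the 13 windows and in 1.79% of all windows. The NR4A response element AAAGGTCA occurred in 0 of the 13 and in 1.51% of all, searched on both strands. A match describes the letters in a window, and no binding was measured.

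Pde4d encodes the PDE4 enzyme known in heart and skeletal muscle for its complexes with beta-arrestin, the ryanodine receptor and the anchor AKAP6. Its levels were 9.41 TPM with clenbuterol and 6.40 TPM in the control, and 9.18 TPM in the titled EPS library against 13.9 TPM in the titled EPS control. The CPM ratio with clenbuterol was 1.51 (1.39 to 1.65), short of the 2-fold call, and TPM plus 1 was higher by 0.49 on the log2 scale, above 96.7% of the genes tested. The clenbuterol library was not the highest for this gene: its CPM was 1.06 times that of the library titled EPS (0.980 to 1.15) and 0.777 times that of the library titled EPS control (0.721 to 0.837). The highest library was thus the titled EPS control, and the lowest was the clenbuterol control. The annotation places Rps3a3, a pseudogene, in an intron of Pde4d on the same strand. Rps3a3 was listed separately with 6052, 6062, 7883 and 6344 counts, several times those of Pde4d itself. How reads of this stretch were assigned is not stated in these sources.

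Pde4a, a further rolipram-sensitive enzyme, was near 2 TPM in the clenbuterol pair, with 1.75 TPM with clenbuterol and 2.16 TPM in the control. Its CPM ratio was 0.847, with an interval from 0.660 to 1.09 that includes 1. Pde4c, the fourth gene of the family, had 10 counts with clenbuterol against 8 in the control, too few to bound a 2-fold difference (0.457 to 3.75). Exons of Pde4c and Pde3a overlap the antisense genes Gm34255 and Gm28523, and since the use of strand is not stated, reads of the overlaps cannot be told apart. As listed, Gm34255 had 0, 7, 3 and 7 counts and Gm28523 had 0 in each library.

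For both PDE3 enzymes, which cyclic GMP inhibits, the counting interval with clenbuterol included 1. Pde3b, the form that insulin activates in fat cells and liver, stood at 4.03 TPM with clenbuterol and 4.26 TPM in the control, a CPM ratio of 0.963 (0.821 to 1.13). Pde3a, the form of heart, vascular smooth muscle and oocytes, had 16 counts with clenbuterol against 19 in the control, and a CPM ratio of 0.867 with an interval from 0.417 to 1.78.

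Pde7a, a cyclic AMP-specific enzyme insensitive to rolipram and abundant in skeletal muscle and T cells, was at 24.5 TPM with clenbuterol and 22.2 TPM in the control, with a CPM ratio of 1.15 (1.08 to 1.22). Pde7b had 0 counts in both libraries of the clenbuterol pair, where a count of 0 allows up to 3 counts per library. Pde8a, a high-affinity enzyme insensitive to the inhibitor IBMX, was at 5.22 TPM with clenbuterol and 5.87 TPM in the control, with a CPM ratio of 0.904 (0.773 to 1.06). Pde10a, best known from striatal neurons, was at 4.58 TPM with clenbuterol and 4.40 TPM in the control, with a CPM ratio of 1.06 (0.931 to 1.20). For 3 members, Pde4b, Pde4d and Pde7a, the counting interval lay above 1 and for 0 it lay below 1. Among all 15687 genes with at least 10 counts in a library of the pair, 17.1% lay above and 13.6% below, so an interval that leaves out 1 is common at this depth.

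**Figure D2:**
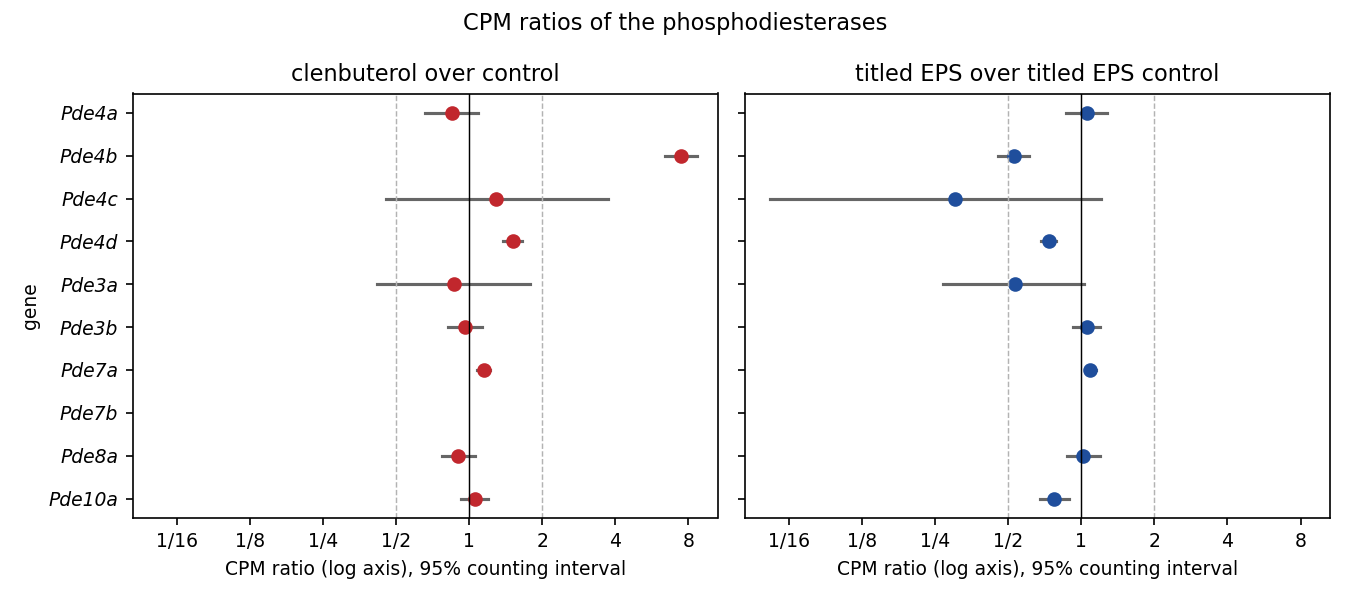
CPM ratio of each phosphodiesterase gene on a log axis, clenbuterol over control on the left and titled EPS over titled EPS control on the right, with bars for the 95% counting interval and dashed lines at 2-fold; Pde7b has no ratio. Pde4b is at 7.45 on the left and 0.527 on the right, and Pde4d at 1.51 and 0.733.

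The transcript pool of the 10 genes summed to 73.4 TPM with clenbuterol and 48.7 TPM in the control, a ratio of 1.51 in TPM and of 1.45 in CPM (1.40 to 1.51). Of the difference of 24.6 TPM, the PDE4 genes carried 23.0 TPM. Without Pde4b the sums were 49.8 TPM with clenbuterol and 45.5 TPM in the control, a ratio of 1.09. The PDE4 family took 47.6% of the pool with clenbuterol and 24.4% in the control, and Pde4b alone 32.1% with clenbuterol and 6.54% in the control. Pde7a took 33.5% with clenbuterol and 45.5% in the control. Its own level was not lower, at 24.5 TPM with clenbuterol and 22.2 TPM in the control. RNA of bulk cultures was measured, so a change in the cells expressing a gene and a change in RNA per cell cannot be told apart.

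**Figure D3:**
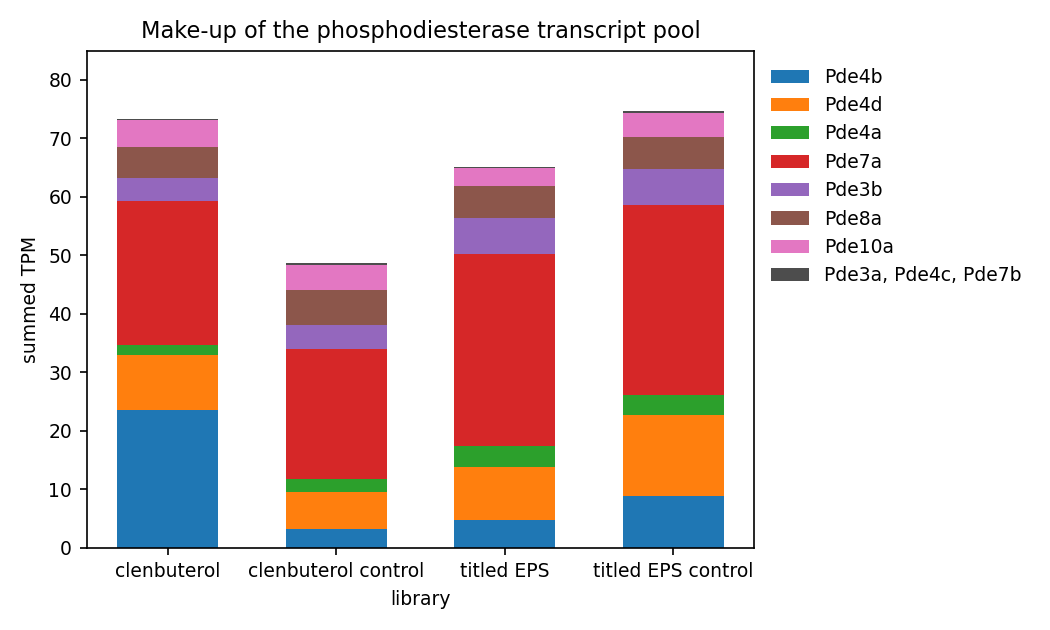
Summed TPM of the 10 phosphodiesterase genes in each library (vertical axis), stacked by gene. The clenbuterol bar reaches 73.4 TPM and its control 48.7 TPM, and most of the gap is the Pde4b segment.

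In the EPS comparison the members called higher or lower numbered 0 of the 7 callable, against 0.868% called higher and 1.14% called lower of 13828 genes. Among the callable members Pde4b and Pde4d again stood farthest from 1, under the titles on the other side of it than with clenbuterol. Pde4b had 4.72 TPM in the titled EPS library against 8.85 TPM in the titled EPS control, a CPM ratio of 0.527 (0.455 to 0.609) and a log2 ratio of -0.78 in TPM plus 1. That is short of the 2-fold call. Pde4d had a CPM ratio of 0.733 (0.681 to 0.789) and a log2 ratio of -0.55, and its counts per unit of TPM differed by up to 1.10-fold over the 4 libraries. Pde10a had 3.09 TPM in the titled EPS library against 4.10 TPM in the titled EPS control, a CPM ratio of 0.776 (0.674 to 0.893). Whether the direction of Pde4b differs between the treatments was not tested, and it would be the same in both pairs if the data names are right.

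Of the other members in the EPS pair, Pde7a was at 32.8 TPM in the titled EPS library against 32.5 TPM in the titled EPS control, with a CPM ratio of 1.09 (1.03 to 1.15). Pde3b (CPM ratio 1.05, 0.926 to 1.20), Pde4a (1.05, 0.869 to 1.27) and Pde8a (1.02, 0.874 to 1.19) had intervals that include 1. Pde3a had 16 counts in the titled EPS library against 27 in the titled EPS control, and Pde4c had 3 in titled EPS against 9 in its control, both with intervals that include 1. Pde7b had 2 counts in the titled EPS library against 0 in the titled EPS control. For 1 member the interval lay above 1 and for 3 it lay below, against 23.6% and 24.1% of 15736 genes. The pool summed to 65.2 TPM in the titled EPS library against 74.7 TPM in the titled EPS control, a ratio of 0.873. The summed myotube markers were also lower in the library titled EPS, at 21019 TPM against 25228 TPM, and their part in these differences was not tested.

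**Figure D4:**
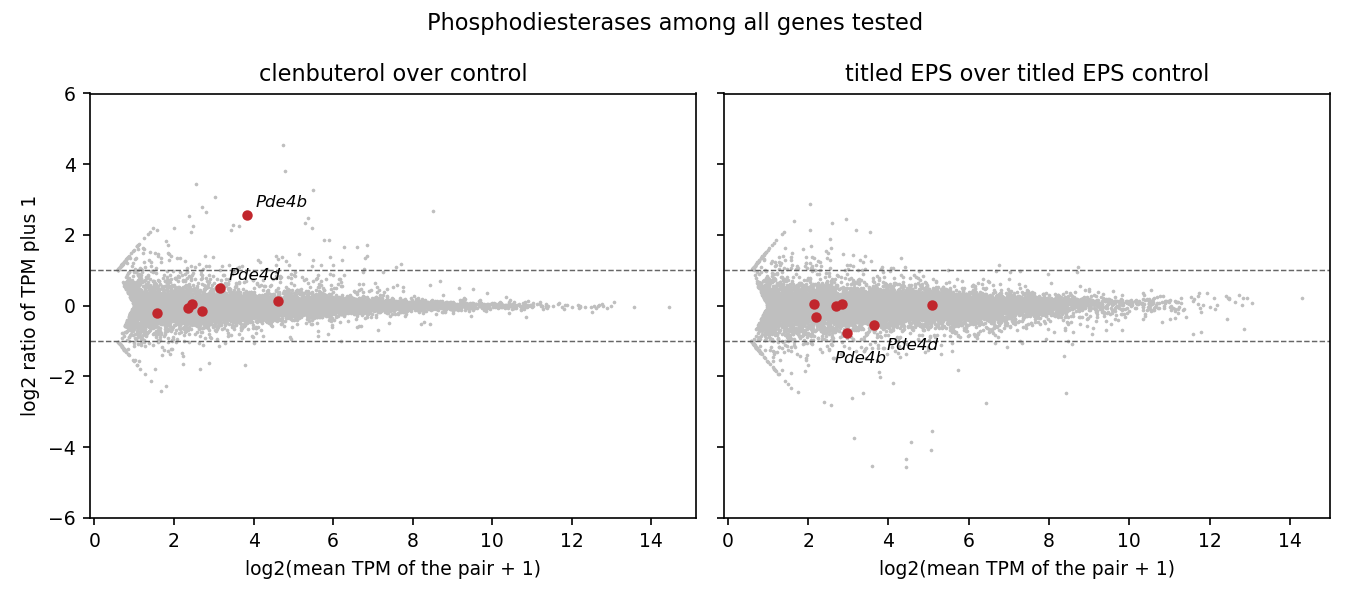
Log2 ratio of TPM plus 1 (vertical axis) against the log2 of the mean TPM of the pair plus 1 (horizontal axis) for all genes tested in grey and the 7 callable phosphodiesterases in red, with dashed lines at 2-fold. Pde4b lies at 2.55 with clenbuterol, above the line, and at -0.78 in the EPS pair, inside it.

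The other genes of the pathway were taken from 5 lists, drawn up with earlier results of these data known. Among 14 other genes named as cyclic nucleotide phosphodiesterases or their noncatalytic subunits, 4 passed the filter and 0 were called in either comparison. These 14 genes, Pde2a and Pde5a included, were not part of the pool summed above, whose shares leave them out. Pde2a, an enzyme that cyclic GMP stimulates, was at 21.7 TPM with clenbuterol and 19.6 TPM in the control, and at 8.88 TPM in the titled EPS library against 14.2 TPM in the titled EPS control. Pde5a, specific for cyclic GMP, was at 22.8 TPM with clenbuterol and 23.9 TPM in the control, and at 24.8 TPM in the titled EPS library against 18.1 TPM in the titled EPS control. Of 18 genes for cyclic AMP production and its regulation, inhibitory G proteins included, 8 passed, and 0 were called. The adenylyl cyclase Adcy6 was at 30.7 TPM with clenbuterol and 26.9 TPM in the control. In the EPS pair it was at 31.2 TPM in the titled EPS library against 40.1 TPM in the titled EPS control, a CPM ratio of 0.796 (0.757 to 0.837).

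Among 17 effector and export genes 13 passed, and 0 were called in either comparison. The pacemaker channel Hcn2 had the highest clenbuterol ratio of these, 1.77 TPM against 1.24 TPM in the control, and the lowest EPS ratio, 0.687 TPM in the library titled EPS against 1.64 TPM in the library titled EPS control. Of 15 anchors and partners found in the table, 13 passed and 0 were called. Pde4dip, which encodes myomegalin, a PDE4D-binding protein, was at 113 TPM in the titled EPS library against 160 TPM in the titled EPS control. The median log2 ratios of these lists with clenbuterol lay between -0.05 and 0.03, against -0.01 over all genes tested. In the EPS pair they were 0.28 for the list of other phosphodiesterases and subunits, and -0.01 for production. They were -0.11 for effectors and -0.19 for anchors, against -0.02 over all genes tested.

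Of 22 genes listed as induced by cyclic AMP through the transcription factor CREB, 20 passed the filter with clenbuterol. Of these, 14 were called higher and 0 lower, against 1.00% and 0.515% of all genes tested. The list had a median log2 ratio of 1.56, or 1.43 with the unfiltered genes included. The largest was Il6, an interleukin that muscle releases in exercise, with 50.4 TPM with clenbuterol and 1.22 TPM in the control, followed by the nuclear receptor Nr4a3 with 50.5 TPM with clenbuterol and 2.66 TPM in the control. At the low end Cited2 had a log2 ratio of 0.08 and Bdnf of 0.28. In the EPS pair 17 passed and 0 were called, with a median log2 ratio of -0.35, or -0.09 with the unfiltered genes included. A promoter window was at hand for 19 of these genes, and 17 of them held the core TGACG, against 23.0% of all genes with a window. The full palindrome TGACGTCA was held by 4 of the 19, against 2.03% of all genes with a window. The genes were listed as CREB targets, with earlier results of these data known. Neither the calls nor the matches are therefore a test.

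**Figure D5:**
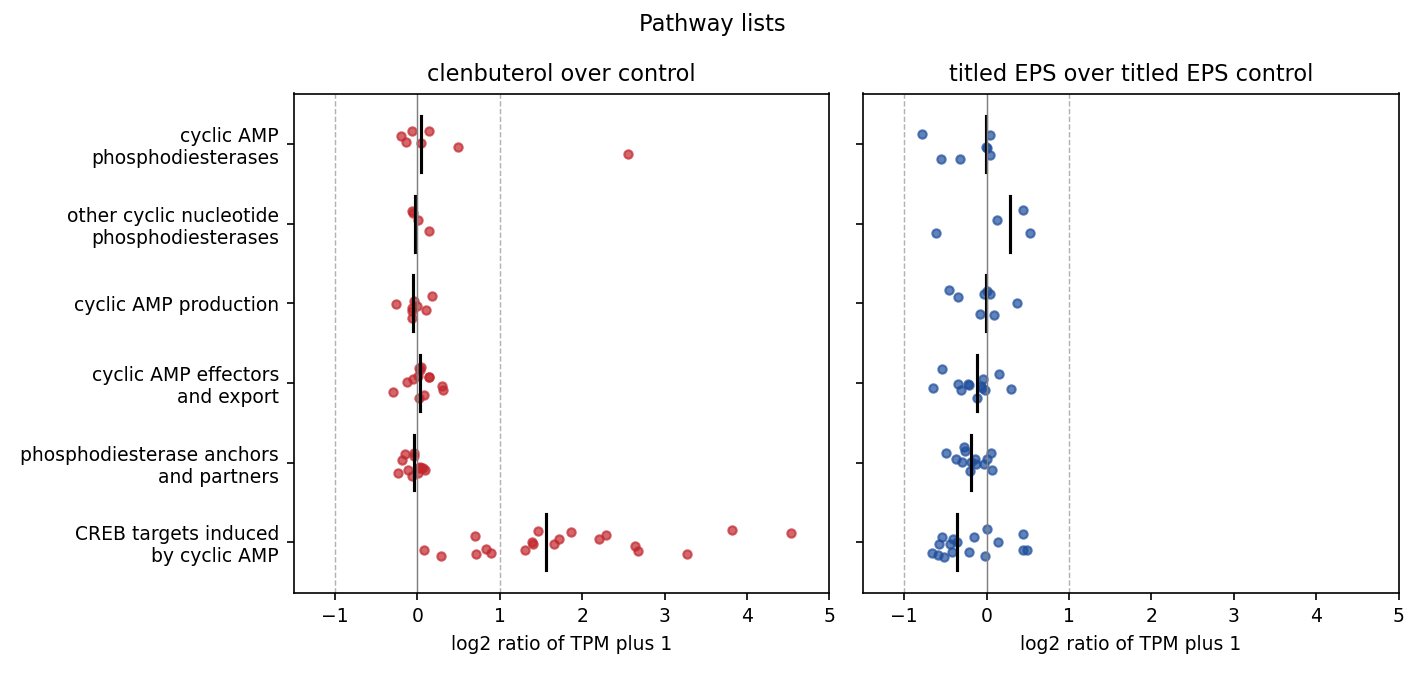
Log2 ratio of TPM plus 1 (horizontal axis) of the genes that passed the filter in each list, clenbuterol over control on the left and titled EPS over titled EPS control on the right, with a black bar at each median and dashed lines at 2-fold. With clenbuterol the CREB targets have a median of 1.56, and the phosphodiesterases 0.05 with Pde4b apart at 2.55.

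The genes whose pattern over the 4 libraries was most like that of Pde4b were found by Euclidean distance between centred log2 values of TPM plus 1, among 10411 genes reaching 5 TPM. The nearest was the histone gene H2aw at a distance of 0.311, with 5.58, 0.427, 1.00 and 1.92 TPM. It was followed by the interleukin-33 receptor Il1rl1 at 0.352, with 10.5, 0.659, 1.26 and 2.26 TPM. The circadian repressor Per1, also on the CREB list, lay at 0.555, the vitamin D receptor Vdr at 0.567 and the urokinase receptor Plaur at 0.916. The likeness rests on 4 libraries, and a gene chosen this way has the order of levels of Pde4b largely by the choice itself.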

How the data were processed

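Reads were aligned with HISAT2 to mm10, per the submitters' processing notes; the sources used here do not name the counting program, the annotation or the use of strand. The authors deposited coverage (a signal), FPKM and TPM per library, and 1 joint table with estimated counts, FPKM and TPM. Coverage was not used. TPM of the joint and single tables differed by more than 0.001 in 1 to 3 genes per library. Counts were rounded, and 26 symbols turned into dates were restored from RefSeq.

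The members and lists were chosen with earlier results of these data known. Named list genes were at most the 2 highest and 2 lowest ratios of each list and comparison, and the 5 genes nearest to the member with the largest clenbuterol ratio. A gene of the production list is not reported here. TMM factors came from edgeR 4.0.16 in R 4.3.3, size factors from DESeq2 1.42.0, and 95% intervals from scipy 1.17.1 in Python 3.11.15. The intervals were exact Clopper-Pearson for ratios and exact Poisson for levels in TPM. A library with no counts was given a floor of 3 counts, below the 3.69 that its exact 95% interval reaches. Counts of members called were read against the share of all genes called. The calculation of ratio intervals was tested on counts simulated with counting error only, which is what the intervals assume. This checks the calculation and says nothing about spread between cultures. Alternatives covered pseudocounts, filters, FPKM, CPM scalings and the single tables.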

Additional observations from a re-analysis of the deposited data

How the results depend on the processing

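Of the members, 1 was called with clenbuterol (Pde4b) and 0 in the EPS pair under each of the 9 other settings of pseudocount, filter, unit, scaling and table. The log2 ratio of Pde4b lay between 1.80 and 2.90 with clenbuterol and between -0.92 and -0.51 in the EPS pair. Over the members, 83 of 90 alternative log2 ratios in each comparison differed from the reported one by no more than a margin. The other 7 differed by more. The margin was that of the counting interval, taken on the log2 scale of CPM and set around the reported TPM value. The count of 83 does not measure stability, because the filters left each ratio unchanged and the single tables barely altered it. Pde7b had no finite interval, so none of its values could exceed the margin. With clenbuterol the 7 were Pde4b under each other pseudocount, unit and scaling, and Pde4d at a pseudocount of 5. In the EPS pair they were values of Pde4b, Pde4d and Pde7a. The sign changed in 0 of 90 values with clenbuterol and in 4 of 90 in the EPS pair, all of Pde8a, at -0.01 as reported and between 0.03 and 0.05 in FPKM and the count scalings. The summed level with clenbuterol was 1.51 times that of its control, against 1.09 without Pde4b. In the EPS pair it was 0.873, against 0.910 in FPKM and 0.918 without Pde4b. Within a library FPKM is TPM times a factor shared by the members, so the shift to 0.910 is one of scaling. The cause of a ratio below 1 was not tested. Chosen after seeing the data, the log2 ratio of Pde4b in clenbuterol was 2.10 against the library titled EPS and 1.32 against the library titled EPS control, and that of Pde4d was 0.03 and -0.52 against the same libraries.

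Counts over all genes moved with the pseudocount. With clenbuterol 138 genes were higher and 71 lower, against 256 and 194 at a pseudocount of 0.1 and 41 and 2 at a pseudocount of 5. In the EPS pair 120 were higher and 158 lower, against 220 and 351, and 9 and 36. In CPM with TMM factors 454 were higher and 381 lower with clenbuterol, and 460 and 569 in the EPS pair. No paired analysis was possible because each group has 1 library. Depth limits Pde3a, Pde4c and Pde7b, which had 27 counts or fewer in every library.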

Other observations

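Pde7a, Pde3b and Pde4a differed more between the culture pairs than within them. In the library titled EPS the CPM of Pde7a was 1.48 times that of the clenbuterol control (1.40 to 1.57), that of Pde3b 1.46 times (1.27 to 1.68) and that of Pde4a 1.51 times (1.23 to 1.87). In the library titled EPS control the same ratios were 1.36, 1.39 and 1.44. Pde8a did not share this, with CPM ratios of 0.927 and 0.908. Under either naming the EPS pair holds a control, so a comparison of control with control is among these ratios. Which ratio that is depends on the naming, and the cause of the difference was not tested.

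Summed markers of undifferentiated myoblasts were 275 TPM with clenbuterol and 200 TPM in the control, and 217 TPM in the library titled EPS and 184 TPM in the library titled EPS control. Their part in the phosphodiesterase levels was not tested.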
